A study of Mus musculus with 4 samples.

Results

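H3K27ac, a histone acetylation of active promoters and enhancers, was examined around 6 genes for transcription factors that pattern the sclerotome and the axial skeleton, Pax1, Pax9, Nkx3-2, Meox1, Meox2 and Uncx. The genes were chosen by name, and they are 6 of 21581 genes annotated as protein-coding in GRCm39. For each gene all peak intervals within 200 kb of its most upstream start site were taken. A peak interval is a stretch called as enriched by the authors' peak caller in 1 library. Intervals from 2 kb before to 500 bp after any start site of the gene were counted as its promoter intervals, those in the same windows of other genes were set aside, and the rest were distal. At the edge of the window, the farthest interval within it lay 199.7 kb from Pax9 in limb EGFP+ cells, with the next outside at 345.5 kb. In trunk EGFP+ cells it lay 198.9 kb from Pax1, with the next at 218 kb. Around Nkx3-2 and Meox1 the next limb EGFP+ interval outside lay just past the edge, at 201.7 and 202.4 kb. The limit of 200 kb thus cut beside further intervals at these genes. All 6 genes were found in the annotation, and each had at least 1 distal interval in at least 3 of the 4 populations.

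The 4 populations were EGFP+ and EGFP- cells sorted from the limbs and from the trunk of E14.5 mouse fetuses, with 1 library each. All fetuses carried the Col2a1-EGFP sensor, a minimal promoter and an EGFP coding sequence placed upstream of Col2a1 on both alleles of G4 embryonic stem cells. They were male and derived from a single stem cell clone by tetraploid aggregation, and cells of several fetuses were sorted. EGFP+ cells are therefore cells with activity at the Col2a1 locus, described by the study as mainly cartilage cells, while EGFP- cells are the mixed remainder of the dissected tissue. The trunk comprised the body from neck to tail without internal organs. Peak names of the trunk EGFP- list carry a Rep2 mark although its label gives replicate 1, and the label was used. Peak names place the limb libraries and the trunk libraries on different sequencing lanes, so that tissue and lane cannot be told apart. With 1 library per population no test between populations was possible, and all comparisons are descriptions of these libraries.

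The sclerotome is the ventral part of the somite that forms the vertebrae and ribs. Sonic hedgehog from the notochord and floor plate induces Pax1 and Pax9, a pair of closely related paired-box factors, which together maintain the proliferation of sclerotome cells and activate Nkx3-2, a homeobox gene formerly called Bapx1 whose product promotes cartilage formation. Meox1 and Meox2 are homeobox genes of the early somite that are needed for sclerotome polarity and for limb muscle, respectively. Uncx encodes a homeodomain protein of the caudal sclerotome that is required for the pedicles and proximal ribs. In bulk populations a lower signal in a mixed cell fraction can come from fewer marked cells or from less of the mark per cell, and these cannot be told apart.

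The labelled cell types were checked by promoter intervals of marker genes. Of 7 cartilage markers, 7 had a promoter interval in limb EGFP+ cells and 7 in trunk EGFP+ cells, against 3 in limb EGFP- and 2 in trunk EGFP- cells. None of the 3 epithelial and none of the 3 blood markers had a promoter interval in any population, so that these components of the EGFP- fractions were not visible by this measure. Of 3 muscle markers, only Myog had a promoter interval, with 13 reads in limb EGFP+ cells. Of 3 endothelial markers, Tek had a promoter interval with 13 reads in each EGFP- population. Of 3 nerve and glia markers, Sox10 was marked in limb EGFP+ cells, with 19 reads, and Tubb3 in trunk EGFP- cells, with 12. Of 3 tendon markers, Scx was marked in trunk EGFP+ cells alone, with 25 reads, and Mkx in all 4 populations, with 12 to 27 reads, so that the EGFP+ lists also held promoter intervals of genes that are not cartilage markers. Of 4 limb patterning genes, 3 were marked in limb EGFP+, 2 in limb EGFP-, 1 in trunk EGFP+ and 0 in trunk EGFP- cells. The trunk EGFP+ interval was that of Tbx4, with 11 reads, and Shox2 had none in any list. What these markers contributed to the values below was not tested. The lists held 30716 to 40899 intervals, with a median of 24 to 26 reads at the summit. They differed in length, from 14231 distal intervals in trunk EGFP- cells to 22833 in limb EGFP+ cells.

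The sequences below show the distal region with the highest −log10 p around each gene among those with an interval in EGFP+ cells and none overlapping it in EGFP- cells. For Meox2, which had no such region, the promoter summit is shown. They are 200 bp around the summit, read from GRCm39 on the plus strand, with capitals marking matches to a short motif on either strand. For the SOX family, 2 of the 7 motifs searched were used, a first core ACAATG beside a second core spelled ACAAAG. The GLI core was searched as CCACCC. The core bound by NKX3-2 was searched as CACTTA. The homeodomain core was searched as TAATTA. Part of the paired-domain site was searched as GTCACG. The forkhead core was searched as TGTTTA. None of these motifs overlapped another in the sequences shown.
Nkx3-2, 166 kb downstream, trunk EGFP+, chr5:41755935-41756134: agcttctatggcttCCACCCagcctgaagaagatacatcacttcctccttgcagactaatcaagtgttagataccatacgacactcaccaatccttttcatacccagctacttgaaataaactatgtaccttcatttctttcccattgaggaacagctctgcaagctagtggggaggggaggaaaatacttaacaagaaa
Pax1, 63.4 kb upstream, trunk EGFP+, chr2:147140297-147140496: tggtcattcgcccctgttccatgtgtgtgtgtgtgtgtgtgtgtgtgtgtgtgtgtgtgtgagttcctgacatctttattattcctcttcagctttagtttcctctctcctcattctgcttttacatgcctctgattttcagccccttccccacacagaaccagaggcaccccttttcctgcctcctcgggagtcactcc
Pax9, 54.5 kb upstream, limb EGFP+, chr12:56683959-56684158: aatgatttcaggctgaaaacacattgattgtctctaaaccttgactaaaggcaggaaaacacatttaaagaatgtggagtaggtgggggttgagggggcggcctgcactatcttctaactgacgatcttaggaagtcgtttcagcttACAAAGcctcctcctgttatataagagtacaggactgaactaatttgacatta
Meox1, 190 kb downstream, limb EGFP+, chr11:101594840-101595039: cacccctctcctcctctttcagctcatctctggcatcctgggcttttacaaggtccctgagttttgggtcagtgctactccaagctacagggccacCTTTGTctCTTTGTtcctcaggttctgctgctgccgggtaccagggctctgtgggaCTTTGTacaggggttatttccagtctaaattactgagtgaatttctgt
Meox2, promoter, 218 bp upstream, limb EGFP+, chr12:37158216-37158415: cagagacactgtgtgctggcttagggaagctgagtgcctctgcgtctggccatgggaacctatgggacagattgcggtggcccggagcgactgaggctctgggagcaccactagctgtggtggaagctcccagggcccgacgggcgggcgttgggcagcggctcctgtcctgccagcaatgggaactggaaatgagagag
Uncx, 76.4 kb downstream, limb EGFP+, chr5:139605548-139605747: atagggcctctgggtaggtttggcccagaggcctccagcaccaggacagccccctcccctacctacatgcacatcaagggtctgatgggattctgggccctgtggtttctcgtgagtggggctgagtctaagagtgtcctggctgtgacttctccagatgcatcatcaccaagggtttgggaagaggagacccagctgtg

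The Meox1 sequence held 3 matches to ACAAAG, all on the minus strand, 2 of them within 10 bp of the summit. How often other windows held 3 matches was not counted. Its summit lay nearer to the start site of Dhx8 than to that of Meox1, and the summit 166 kb downstream of Nkx3-2 lay nearer to Rab28. The Pax9 sequence held 1 match to ACAAAG and the Nkx3-2 sequence 1 match to CCACCC, and the sequences of Pax1, Meox2 and Uncx held no match to any of the 7 motifs. Among windows of the same length around all distal summits, ACAAAG was present in 16.9% of those of limb EGFP+ cells and CCACCC in 19.2% of those of trunk EGFP+ cells, so single matches were common. The G and C content ran from 41.5% in the Pax9 sequence to 58.0% in the Uncx sequence, around medians of 50.0% and 50.5% for the distal windows of limb and trunk EGFP+ cells. The Meox2 promoter sequence had 63.5%, against a median of 57.5% at promoter summits. A further sequence, the strongest distal interval around Nkx3-2, and the promoter summit of Uncx in trunk EGFP+ cells were added after their values were seen, and neither held a match.
Nkx3-2, 57.0 kb downstream, intron of Rab28, trunk EGFP+, chr5:41864760-41864959: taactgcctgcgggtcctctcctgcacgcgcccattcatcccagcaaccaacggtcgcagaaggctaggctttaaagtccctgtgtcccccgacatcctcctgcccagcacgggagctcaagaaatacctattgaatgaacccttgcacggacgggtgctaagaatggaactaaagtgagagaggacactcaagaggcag
Uncx, promoter, 136 bp upstream, trunk EGFP+, chr5:139529014-139529213: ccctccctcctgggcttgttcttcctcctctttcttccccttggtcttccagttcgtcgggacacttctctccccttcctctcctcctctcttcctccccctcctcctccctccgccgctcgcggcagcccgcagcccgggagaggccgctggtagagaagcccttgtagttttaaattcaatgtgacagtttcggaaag

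At promoters, trunk EGFP+ cells marked 5 of the 6 genes, limb EGFP+ cells 3, and each EGFP- population 1. The order of the EGFP+ populations turned among intervals of fold 4 or more, where limb EGFP+ cells marked 2 genes and trunk EGFP+ cells 1. Over all genes a promoter interval was found for 52.6% in trunk EGFP+, 54.4% in limb EGFP+, 51.6% in limb EGFP- and 52.7% in trunk EGFP- cells. Pax9 and Nkx3-2 were marked in both EGFP+ populations and in no EGFP- population, a pattern of 1.45% of all genes. Pax1 and Uncx were marked in trunk EGFP+ cells alone, as were 0.774% of all genes. Meox2 was marked in all 4 populations, as were 47.4% of genes, and Meox1 in none, as were 41.3%. None of the 6 was marked in limb EGFP+ cells alone, the pattern of 1.66% of all genes.

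For each interval the number of extended reads at the summit and the local background could be recovered from the deposited fold and −log10 p. The local background is the number of reads that the peak caller expected there from the wider surroundings in the same library, so a wide acetylated domain raises it and lowers the fold. Intervals given for reads are exact Poisson intervals at the 95% level and cover counting error only.

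Pax1 (chr2:147203845-147235215, plus strand) has start sites at its 5′ end and within the gene. Its promoter interval in trunk EGFP+ cells was 381 bp wide and lay over coding exon sequence 3.58 kb downstream of the most upstream start. It had 43 reads at the summit (31.1 to 57.9) over a local background of 15.9, a fold of 2.61. In the limb EGFP+, limb EGFP- and trunk EGFP- lists the nearest interval lay 61.4, 346 and 89.4 kb from the promoter windows. An interval at the Pax1 promoter was therefore called in the trunk EGFP+ list alone. A missing call means a signal below the calling limit and does not show that the mark was absent.

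Pax9 (chr12:56738552-56759607, plus strand) had 3 promoter intervals in trunk EGFP+ cells, with 29, 38 and 41 reads, at the most upstream start and 4.05 and 4.79 kb downstream of it, near its second start site. Their local backgrounds were 11.1, 15.3 and 14.7 reads. In limb EGFP+ cells Pax9 had a single promoter interval, with 14 reads (7.65 to 23) over a background of 3.42, and it overlapped the middle trunk interval. At this shared place trunk EGFP+ cells had 2.71 times the reads of limb EGFP+ cells (95% interval from the counts 1.44 to 5.42), while the median ratio over 14812 promoter regions shared by these lists was 0.815. The nearest interval in limb EGFP- and trunk EGFP- cells lay 133 kb away in either list.

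Nkx3-2 (chr5:41917720-41921904, minus strand) had a promoter interval with 34 reads (24 to 48) in limb EGFP+ cells and with 42 reads (30.3 to 56.8) in trunk EGFP+ cells. Both lay over the 5′ end of the gene, with summits 354 and 169 bp downstream of the start, and both ranked in the upper 45% of their lists by −log10 p, at 43.8% and 44.9%. The local background was 7.74 reads in limb and 12.7 in trunk EGFP+ cells. The ratio of reads, 1.24 (0.767 to 2.0), did not exclude the median ratio of shared promoters, 0.815, so a tissue difference at the Nkx3-2 promoter was not detectable at this depth. In both EGFP- lists the nearest interval was that at the Rab28 promoter, more than 55 kb away.

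Uncx (chr5:139529249-139533934, plus strand) had its promoter interval in trunk EGFP+ cells, 200 bp wide, with 24 reads (15.4 to 35.7) over a background of 8.04 and a summit 136 bp before the start. It ranked at 77.4% of the list, with a −log10 p of 5.89. Of the promoter intervals of the 6 genes in this population, only that at the most upstream start of Pax9 was lower, at 5.67. The nearest intervals to the Uncx promoter lay 56.4 kb away in limb EGFP+ cells, 19.0 kb away in limb EGFP- cells and 56.5 kb away in trunk EGFP- cells.

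Meox2 (chr12:37158533-37229533, plus strand) was marked on both sides of its start. Upstream, summits with 19 reads in limb EGFP+, 22 in trunk EGFP+ and 21 in trunk EGFP- cells lay 218, 288 and 261 bp before the start. Downstream, over coding exon sequence, summits with 32 reads in limb EGFP-, 25 in trunk EGFP+ and 20 in trunk EGFP- cells lay 493, 501 and 610 bp after it. Limb EGFP- cells thus lacked the upstream interval and limb EGFP+ cells the downstream one. The local background was 12.0 reads in limb EGFP- cells and 3.0 to 5.28 at the other 5 intervals.

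Meox1 (chr11:101768336-101785227, minus strand) had no promoter interval, but the nearest interval in trunk EGFP- cells stopped 17 bp short of its promoter window. That interval had 27 reads at a summit 673 bp downstream of the start, over coding exon sequence, and counts as distal by the rule. In limb EGFP- cells the nearest interval lay 2.14 kb from the window, with 17 reads, and in both EGFP+ lists it lay more than 11 kb away, within the gene. With promoter windows of 5 kb on both sides, chosen after the values were seen, genes with a promoter interval numbered 2 in each EGFP- population.

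Pax1, Pax9 and Nkx3-2 had in trunk EGFP+ cells a high local background beside middling reads at the summit. By the highest reads of their promoter intervals they exceeded 37.6%, 35.0% and 36.2% of the genes with a promoter interval in that list. By local background they exceeded 95.0%, 94.2% and 89.0% of these genes. The Uncx promoter in the same list exceeded 14.8% by reads and 62.9% by background. In limb EGFP+ cells the Nkx3-2 promoter exceeded 21.9% of genes by reads and 55.1% by background, and the Pax9 promoter 4.70% and 16.2%. The Meox2 promoter had a high background beside lower reads in limb EGFP- cells, at 89.1% of genes by background and 27.1% by reads. It did not in the other lists, where its background exceeded that of 12.6% to 35.0% of genes.

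**Figure D1:**
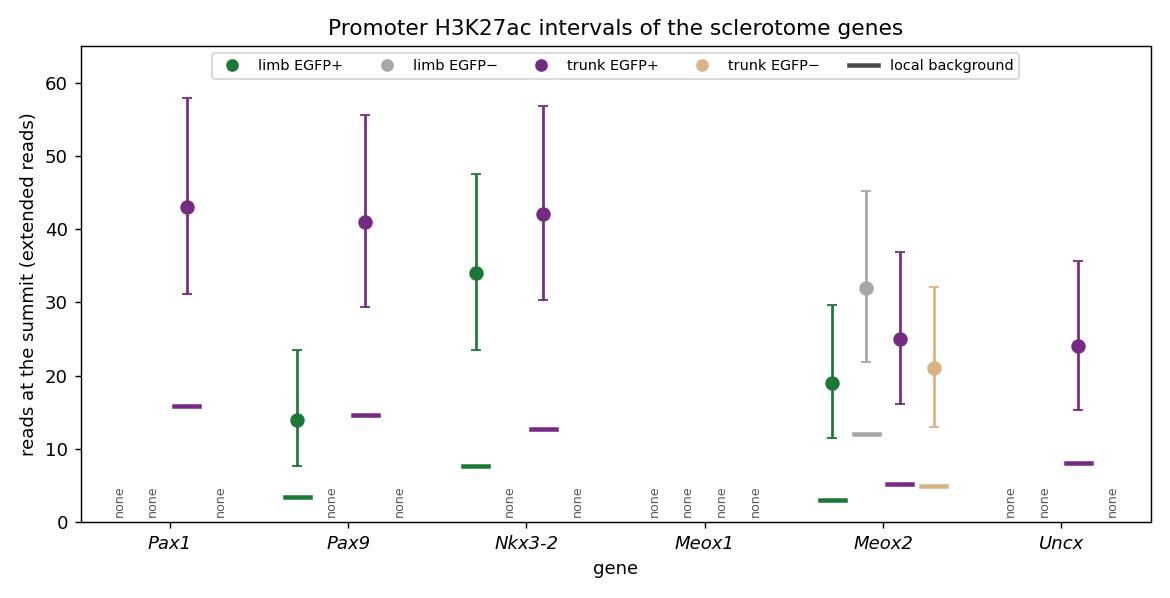
Extended reads at the summit of the promoter interval with the most reads for each gene (x axis) in the 4 populations (colours). Points show reads with exact Poisson 95% intervals, short lines the local background, and "none" a population without a promoter interval. Trunk EGFP+ cells have an interval at every gene but Meox1, and the trunk EGFP+ points of Pax1, Pax9 and Nkx3-2, at 41 to 43 reads, stand over backgrounds of 12.7 to 15.9.

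Around the promoters, the 6 windows held 28 distal intervals in limb EGFP+, 25 in limb EGFP-, 36 in trunk EGFP+ and 22 in trunk EGFP- cells. Meox1 and Uncx, whose windows hold 8 other genes each, contributed most of them, and without these genes the counts were 9, 7, 13 and 4. The windows of the other 4 genes hold 1 or 2 other genes. The distal intervals around all 6 genes had a median width of 270.5 bp in trunk EGFP+ and 294 bp in limb EGFP+ cells. Over all distal intervals of these lists it was 324 and 331 bp. In limb EGFP- cells it was 327 bp beside 294 bp, and in trunk EGFP- cells 296.5 bp beside 303 bp. The median rank of the intervals around the 6 genes, as a percentage from the top of the list, was 64.4% in limb and 67.3% in trunk EGFP+ cells. Over all distal intervals it was 67.2% and 68.3%. In EGFP- cells it was 73.3% in limb and 71.9% in trunk, beside 68.8% and 71.2%. Of the 36 in trunk EGFP+ cells 7 ranked in the upper 50% of the list, and of the 28 in limb EGFP+ cells 5, while 25.3% and 27.3% of all distal intervals did.

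Around Pax1 the 400 kb window held 1 distal interval in limb EGFP+, none in limb EGFP-, 2 in trunk EGFP+ and 1 in trunk EGFP- cells. The medians over all genes were 3, 3, 3 and 2. Fewer than around Pax1 were found for 22.2% of genes in limb EGFP+, 35.0% in trunk EGFP+ and 25.4% in trunk EGFP- cells. In limb EGFP- cells 22.0% of genes had none either. The region 63.4 kb upstream was marked in both EGFP+ populations, with 14 reads over 705 bp in trunk and 8 reads over 259 bp in limb, and in neither EGFP- population. In trunk EGFP+ cells it ranked at 58.8% of the list and in limb EGFP+ cells at 96.6%. The ratio of reads was 1.75 (0.685 to 4.81), which included the median of 0.897 over distal regions shared by these lists. The other marks were a trunk EGFP+ interval with 14 reads 199 kb downstream, just within the window, and a trunk EGFP- interval with 13 reads 93.1 kb downstream.

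Around Pax9 the distal intervals of EGFP+ and of EGFP- cells did not overlap anywhere, with only 1 distal interval in each EGFP- list. Over all distal intervals, 68.5% in limb and 69.1% in trunk EGFP+ cells overlapped no EGFP- interval of the same tissue. The region 54.5 kb upstream, nearer to the start site of Nkx2-9, had 14 reads in limb and 8 in trunk EGFP+ cells. Downstream, within the neighbouring gene Slc25a21, trunk EGFP+ cells had 3 intervals, with 14, 13 and 11 reads, 77.8, 78.4 and 89.9 kb from the start. Limb EGFP+ cells had no interval there. Further downstream, 138 kb from the start and in an intron of Slc25a21, both EGFP- populations shared an interval, with 11 reads in limb and 14 in trunk, and no EGFP+ interval overlapped it. The other 2 limb EGFP+ intervals, upstream of the gene, had 9 and 7 reads.

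Around Nkx3-2 the strongest distal interval in both EGFP+ lists was that 57 kb downstream in an intron of Rab28, with 47 reads in limb and 44 in trunk EGFP+ cells. It was also called in trunk EGFP- cells, with 21 reads over 200 bp, and not in limb EGFP- cells. Trunk EGFP+ cells had 2.10 times the reads of trunk EGFP- cells (1.22 to 3.71), above the median ratio of 1.04 over distal regions shared by these lists. Since the summit lies within 1 kb of the Rab28 start site, whose own promoter was marked in all 4 populations with 51 to 81 reads, it cannot be assigned to Nkx3-2 by position. Upstream, in an intron of Bod1l, limb EGFP+ cells had 18 reads, limb EGFP- cells 25 and trunk EGFP+ cells 20, in intervals next to the Bod1l promoter. Trunk EGFP+ cells alone had intervals with 14 reads 166 kb downstream, with 14 reads 69.5 kb downstream in Rab28 and with 25 reads 3.0 kb upstream of Nkx3-2, the last over a background of 9.98. Limb EGFP+ cells alone had intervals with 10 reads 145.2 kb and with 9 reads 90.8 kb downstream.

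Around Meox1 the counts were highest in EGFP- cells, 13 in either tissue, against 11 in limb and 10 in trunk EGFP+ cells. Over all genes, 27.6% had fewer in EGFP+ than in EGFP- cells in limb and 24.1% in trunk. Lower counts than around Meox1 were found for 86.6% to 97.4% of genes across the 4 lists. Of its 24 merged distal regions 4 were marked in limb EGFP- cells alone and 5 in trunk EGFP- cells alone. Over all distal regions these patterns made up 15.8% and 11.4%. The region 122 kb downstream in an intron of Etv4 was present in all 4 lists, at 16, 14, 21 and 11 reads in limb EGFP+, limb EGFP-, trunk EGFP+ and trunk EGFP- cells. The region 51.7 kb downstream had 26 reads in limb EGFP+, 22 in limb EGFP- and 26 in trunk EGFP+ cells. The region 64.3 kb downstream was strongest in limb EGFP- cells, with 38 reads, against 12 in limb EGFP+ and 20 in trunk EGFP- cells. The limb EGFP+ to EGFP- ratio there was 0.316 (0.15 to 0.617), below the median of 1.11 over shared distal regions. The region 37.9 kb downstream was marked in both EGFP- populations only, with 19 reads in limb and 23 in trunk. Within the gene, an intron 12.8 kb downstream had 18 reads in limb EGFP+, 21 in limb EGFP- and 22 in trunk EGFP+ cells. Most of the Meox1 intervals lay downstream, toward Etv4, a gene of the ETS family that also had promoter intervals in all 4 populations.

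Around Meox2 limb EGFP- cells had 5 distal intervals, trunk EGFP+ cells 2, and the other populations 1 each. The region 175 kb upstream was present in all 4 lists with 11, 13, 15 and 11 reads in limb EGFP+, limb EGFP-, trunk EGFP+ and trunk EGFP- cells, and the interval of every ratio between lists computed there included 1. Of the limb EGFP- intervals, 2 lay within 3 kb downstream of the start, with 29 reads each over backgrounds of 12.1 and 11.9 beside 12.0 at the promoter interval. Those with 11 and 9 reads lay 117 kb upstream and 80.7 kb downstream. Meox2 was the gene among the 6 without any EGFP+ distal interval free of EGFP- overlap.

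Around Uncx trunk EGFP+ cells had 13 distal intervals, limb EGFP+ cells 8, and both EGFP- populations 5. The highest −log10 p of the distal intervals around the 6 genes, 47.5, was that of a region 171 kb upstream in an intron of Chlsn, near Gpr146. It had 54 reads in limb EGFP+, 67 in limb EGFP-, 49 in trunk EGFP+ and 76 in trunk EGFP- cells. The trunk EGFP+ to EGFP- ratio was 0.645 (0.441 to 0.935), below the median of 1.04, while the interval of the limb ratio, 0.806 (0.553 to 1.17), included the median of 1.11. Nearer to Uncx, the adjoining regions 75.8 and 76.4 kb downstream were marked in both EGFP+ populations and in no EGFP- population. They had 31 and 38 reads in limb and 16 and 26 in trunk EGFP+ cells, so that the reads were higher in limb although the Uncx promoter was marked in trunk alone. The ratios of trunk to limb, 0.516 (0.264 to 0.973) and 0.684 (0.399 to 1.16), both included the median of 0.897. Trunk EGFP+ cells alone had the intervals 7.89 kb upstream, with 12 reads, and 2.91 and 56.2 kb downstream, with 27 and 10 reads. The region 21.0 kb upstream was marked in trunk EGFP+ cells with 16 reads and in limb EGFP- cells with 12.

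**Figure D2:**
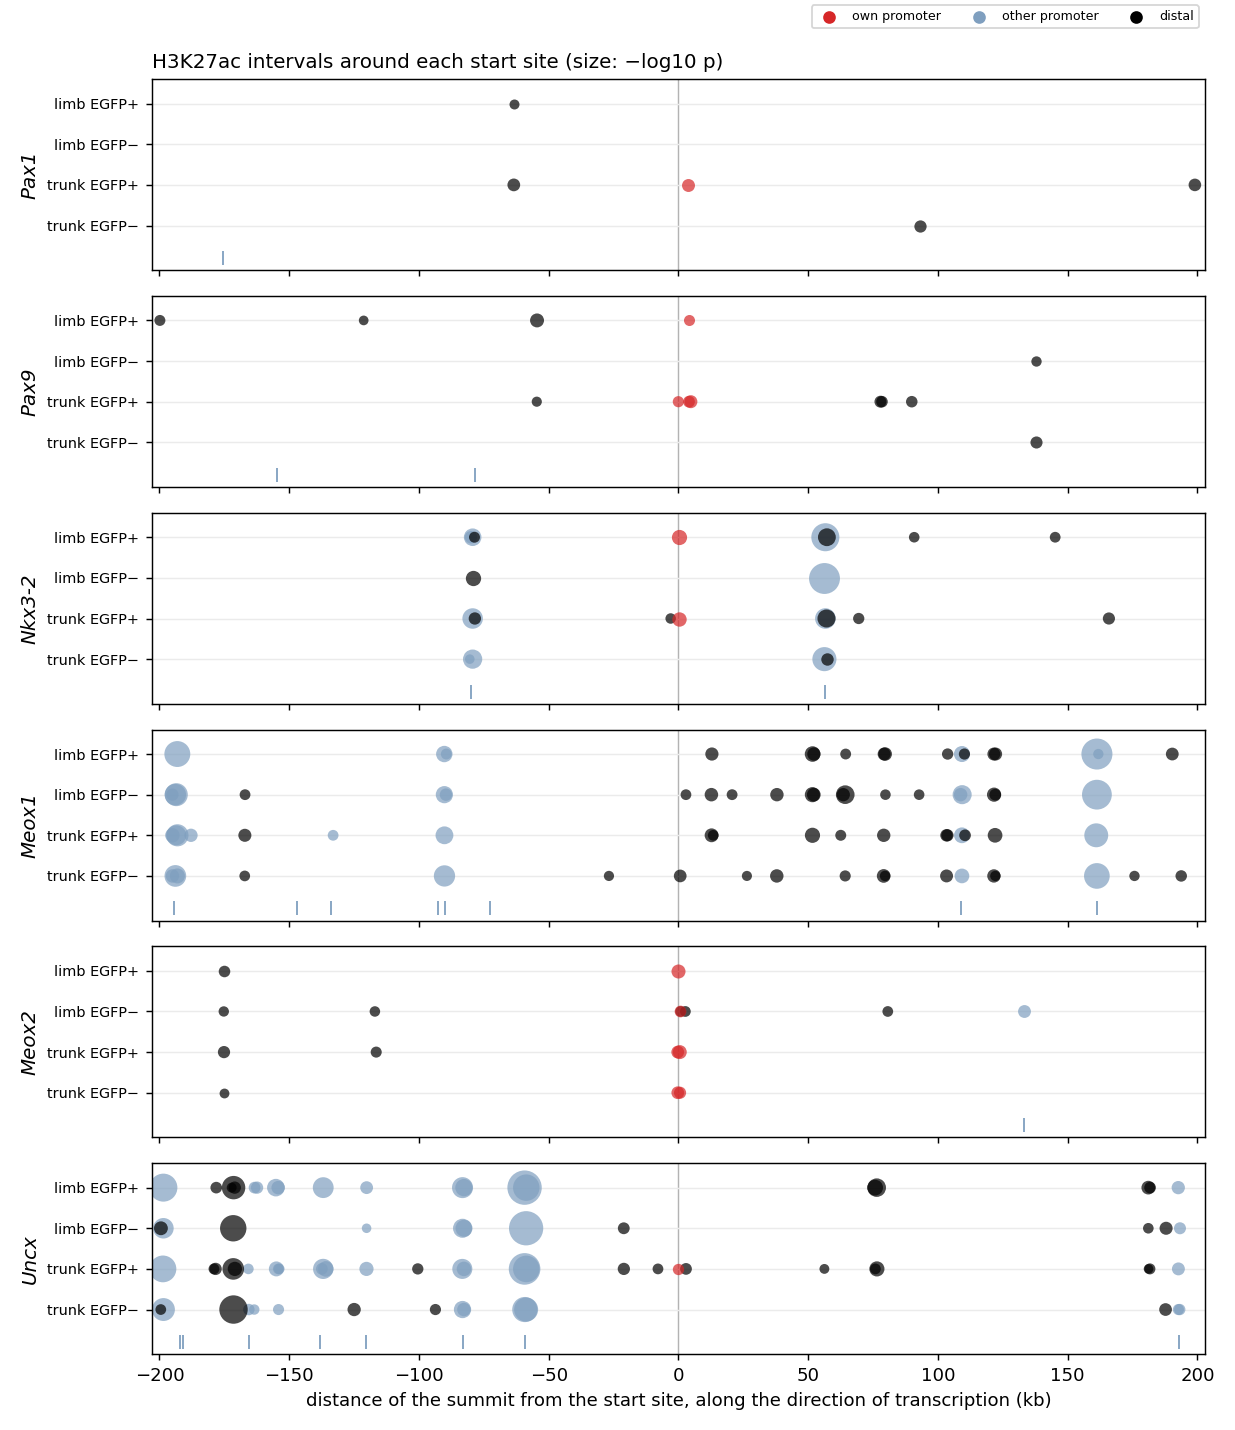
Intervals around the 6 genes in the 4 populations, by distance of the summit from the start site (x axis, kb, positive downstream), with the point area growing with −log10 p. Own promoter intervals are red, intervals at promoters of other genes blue, distal intervals black, and blue ticks mark start sites of other protein-coding genes. The Pax1, Pax9 and Meox2 windows hold 0 to 7 distal or own promoter intervals per population. The Meox1 and Uncx windows hold 5 to 13 distal ones, beside a median over all genes of 2 to 3.

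Compared between tissues, trunk EGFP+ cells had more distal intervals than limb EGFP+ cells around 5 of the 6 genes and fewer around Meox1. Over all genes, 26.1% had more in trunk and 40.8% had fewer. The excess was small, with 1 interval each for Pax1, Pax9, Nkx3-2 and Meox2 and 5 for Uncx. When only intervals at or above 5 on the −log10 q scale were kept, the totals were 12 in trunk and 14 in limb EGFP+ cells. The order also turned with windows of 500 kb, at 65 and 67, and both totals were 17 at a fold of 4 or more. Counting only intervals whose nearest start site was that of the member, trunk EGFP+ cells had 17, limb EGFP+ cells 7, limb EGFP- cells 12 and trunk EGFP- cells 7. By gene, trunk against limb EGFP+ counts were 6 and 2 for Uncx, 3 and 0 for Pax9, and 1 and 0 for Nkx3-2. They were 2 and 1 for Pax1 and Meox2 each, and 3 and 3 for Meox1. No share over all genes stands beside these counts. In EGFP- cells, trunk had more intervals than limb around Pax1, as around 23% of all genes, and fewer around Meox2, as around 42.9%, with equal counts around the other 4 genes. Of the 22 trunk EGFP- distal intervals 11 (50.0%, exact binomial 95% interval 28.2 to 71.8) overlapped no limb EGFP- interval, beside 46.3% over the list.

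Compared between fractions, EGFP+ cells had more distal intervals than EGFP- cells in both tissues around Pax1, Pax9, Nkx3-2 and Uncx, 4 of the 6 genes, as did 29.4% of all genes. Meox1 had fewer in both tissues, while 27.6% of all genes had fewer in limb and 24.1% in trunk, each tissue taken alone. It had more in both among intervals at or above 5 on the −log10 q scale, by 1 in limb and 1 in trunk. The same held among those of fold 4 or more, by 2 and 3. Meox2 had fewer in limb and more in trunk, as did 8.98% of genes. Of the 36 trunk EGFP+ distal intervals, 28 (77.8%, exact binomial 95% interval 60.8 to 89.9) overlapped no trunk EGFP- interval, beside 69.1% of all distal intervals of the list. Of the 28 in limb EGFP+ cells, 17 (60.7%, 40.6 to 78.5) overlapped no limb EGFP- interval, beside 68.5%. Both backgrounds lay within the intervals. By gene, 2 of 2 trunk EGFP+ intervals around Pax1, 4 of 4 around Pax9 and 12 of 13 around Uncx were free of trunk EGFP- overlap. The counts were 6 of 10 around Meox1, 3 of 5 around Nkx3-2 and 1 of 2 around Meox2.

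Of the 36 trunk EGFP+ distal intervals, 18 (50.0%, 32.9 to 67.1) overlapped no limb EGFP+ interval, beside 40.6% over the list. Of the 28 in limb EGFP+ cells, 9 (32.1%, 15.9 to 52.4) overlapped no trunk EGFP+ interval, beside 50.6%. In windows of 500 kb this share was 50.7% (34 of 67), level with that of the list. The limb-only intervals were 2 each around Nkx3-2 and Pax9, 4 around Meox1 and 1 around Uncx. Limb EGFP+ marks that had no trunk counterpart were therefore absent around Pax1 and Meox2 in these lists, at 1 limb EGFP+ distal interval each.

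**Figure D3:**
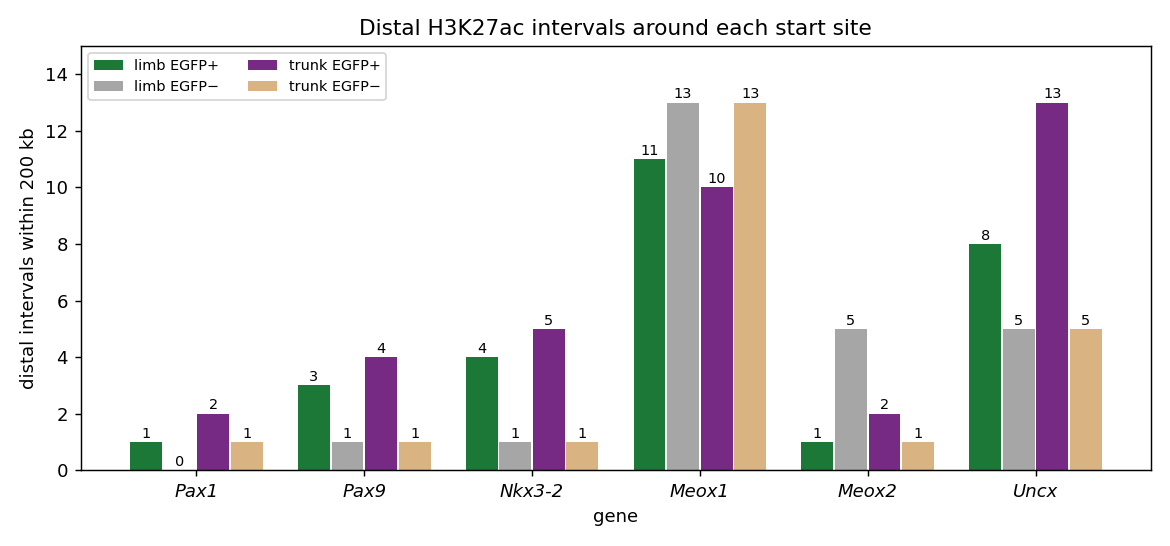
Number of distal intervals within 200 kb of each start site (y axis) for the 6 genes (x axis) and the 4 populations (bars, 1 library each). Trunk EGFP+ bars exceed limb EGFP+ bars at every gene except Meox1, most at Uncx with 13 against 8.

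When intervals of the 4 lists were merged where they overlapped, the windows held 60 distal regions, 24 of them around Meox1 and 16 around Uncx. Of these, 14 (23.3%, exact binomial 95% interval 13.4 to 36.0) were marked in trunk EGFP+ cells alone, beside 14.6% of all 42651 distal regions. Regions marked in limb EGFP+ cells alone numbered 5 (8.33%, 2.76 to 18.4), beside 21.8%, which lies above that interval. Regions marked in both EGFP+ populations only numbered 9 (15%, 7.1 to 26.6), beside 10.8%. Limb EGFP- cells alone marked 6 regions (10%, 3.76 to 20.5), beside 15.8%. Trunk EGFP- cells alone marked 8 (13.3%, 5.94 to 24.6), beside 11.4%. Both EGFP- populations only marked 3 regions, 5% beside 4.62%, and all 4 populations marked 3, 5% beside 8.87%. The 14 trunk EGFP+ regions comprised 5 around Uncx, 3 each around Nkx3-2 and Pax9, 2 around Meox1 and 1 around Pax1. The 5 limb EGFP+ regions comprised 2 each around Nkx3-2 and Pax9 and 1 around Meox1. Regions within a window share neighbours and domains, so the binomial intervals are too narrow to the extent that they are not independent. Of the 60 regions 33 were intergenic and 22 intronic, with 4 touching coding exons and 1 a UTR.

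**Figure D4:**
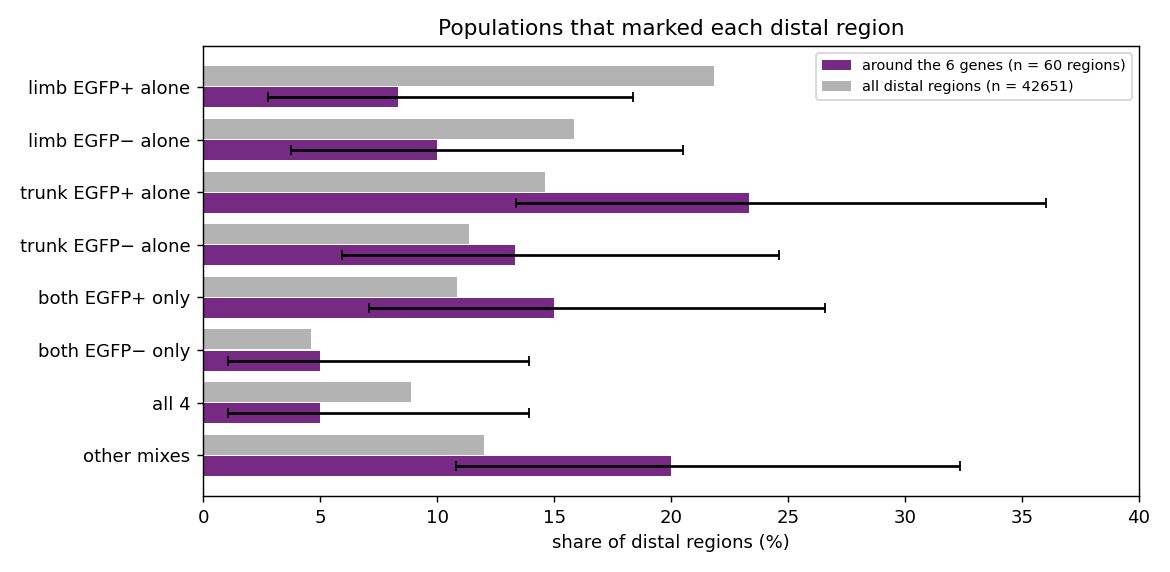
Share of distal regions (x axis, %) by the populations that marked them (y axis), for the 60 regions around the 6 genes (purple, exact binomial 95% intervals) and all 42651 distal regions (grey). Regions of trunk EGFP+ cells alone make up 23.3% around the 6 genes against 14.6% among all regions, and those of limb EGFP+ cells alone 8.33% against 21.8%.

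The other genes of sclerotome induction were read from a list of 13. Sonic hedgehog itself, Shh, had no promoter interval in any population. Its receptor Ptch1 and the effectors Gli1, Gli2 and Gli3 had promoter intervals in all 4, with 55 to 87 reads for Ptch1 and 38 to 107 for Gli1. Promoter intervals were found for 9 of 13 in limb EGFP+, 7 in limb EGFP-, 9 in trunk EGFP+ and 9 in trunk EGFP- cells. None of the 13 was marked in EGFP+ cells alone in both tissues, like Pax9 and Nkx3-2, beside 1.45% of all genes. None was marked in trunk EGFP+ cells alone, like Pax1 and Uncx, beside 0.774%. With shares so low, 13 genes cannot show a lack of either pattern. Of the 13, 6 were marked in all 4 populations, beside 47.4% of all genes. Tcf15, a somite gene also called paraxis, was marked in both trunk populations and in neither limb population, with 19 reads in trunk EGFP+ and 20 in trunk EGFP- cells. In contrast, Tbx18 was marked in both limb populations and in neither trunk population. Trunk EGFP+ cells had fewer distal intervals than limb EGFP+ cells around 11 of the 13 genes and more around none, beside 40.8% and 26.1% of all genes, as for example 3 against 9 around Gli1 and 13 against 17 around Sox9.

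The genes whose windows were most like those of each member were found by Euclidean distance between the log2 of distal base pairs (plus 200) over the 4 lists, among genes more than 400 kb away. They were Nfrkb for Nkx3-2 (distance 0.127), Khdc1c and Khdc1b for Pax1 (0.197 each), Saraf for Pax9 (0.201), Mmp14 for Meox1 (0.102), Sh3rf3 for Meox2 (0.239) and Slc1a3 for Uncx (0.0797). Mmp14, a membrane-bound matrix protease, had 11, 13, 12 and 12 distal intervals in limb EGFP+, limb EGFP-, trunk EGFP+ and trunk EGFP- cells beside 11, 13, 10 and 13 for Meox1. Slc1a3, a glutamate transporter, had 9, 6, 13 and 10 beside 8, 5, 13 and 5 for Uncx. With 4 values per gene, such likeness describes the amount of acetylated sequence alone.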

How the data were processed

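H3K27ac ChIP-seq peak lists of 4 populations, 1 library each, were analysed. The authors sampled a similar number of reads per library, trimmed them with CutAdapt 1.18, mapped them to GRCm39 with Bowtie2 2.3.5.1, kept high-quality alignments with Samtools and called peaks per library with MACS2 2.2.7.1 after extending reads to 200 bp. No control library is named. The deposited score is an integer form of the −log10 q. The deposited fold is the ratio of summit pileup to the local background of the same library, and the −log10 p and −log10 q were deposited as MACS2 gave them.

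Summit rows that shared both coordinates were treated as 1 interval. Reads and background were recovered for 100% of summits within 0.01 of the −log10 p, with summits of 7 to 270 reads, and ratios compare only reads at regions shared by 2 lists, whose summits can differ in position. Overlap meant at least 1 bp. Named were all 6 genes, their promoter intervals, strongest distal intervals and up to 5 regions by −log10 p, further members of a class being added after the values were seen. The members and lists were chosen with earlier results of these data known. Other thresholds, windows and assignments were tried. Scripts were tested on simulated data. Python 3.11.15, numpy 2.4.6, pandas 2.3.3 and scipy 1.17.1 were used.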

Additional observations from a re-analysis of the deposited data

Results flagged for a closer look

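The number of distal intervals around Meox2 ran in opposite directions in the 2 tissues. Limb EGFP+ cells had 1 and limb EGFP- cells 5, a difference of -4, while trunk EGFP+ cells had 2 and trunk EGFP- cells 1, a difference of 1. With 1 library per population the difference between the tissues was not tested, and 8.98% of all genes showed the same order of counts. Among intervals of fold 4 or more, the difference in limb was 1. With a −log10 q of at least 5 both differences were 0, and in windows of 100 kb that in trunk was 0. With promoter windows of 5 kb the limb difference was -2. In windows of 500 kb the order held, at -3 in limb and 1 in trunk.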

How the results depend on the processing

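No paired analysis was possible because each population had 1 library, and for the same reason no library could be left out. Counts of distal intervals in limb EGFP+, limb EGFP-, trunk EGFP+ and trunk EGFP- cells (28, 25, 36 and 22) became 14, 11, 12 and 8 with a −log10 q of at least 5, 5, 11, 8 and 9 in the 20000 intervals of highest −log10 p, 17, 10, 17 and 8 with a fold of at least 4, and 4, 9, 7 and 8 in the 20000 intervals of most reads. They were 13, 15, 20 and 10 in windows of 100 kb and 67, 54, 65 and 46 in windows of 500 kb. They became 49, 41, 60 and 41 with other promoters counted, and 7, 12, 17 and 7 by nearest start site. Genes with a promoter interval (3, 1, 5 and 1) fell to 0 in limb EGFP- cells with the q, fold and −log10 p limits. They were 1 in limb and 2 in trunk EGFP+ cells under the −log10 p limit, 2 in limb EGFP+, 1 in trunk EGFP+ and 0 in trunk EGFP- cells under the fold limit, 1 in limb EGFP+ cells under the limit on reads, and 2 in each EGFP- population with promoter windows of 5 kb. The promoter windows of 5 kb and the limit on reads were chosen after the data were seen.

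The share of trunk EGFP+ intervals without trunk EGFP- overlap moved from 77.8% to 58.3% with other promoters counted and to 94.1% (16 of 17) by nearest start site. That in limb moved from 60.7% to 39.3% when limb EGFP- intervals within 1 kb counted as shared. The share of limb EGFP+ intervals without trunk EGFP+ overlap (32.1%) was 0% of 7 by nearest start site, but 50.7% at 500 kb, 47.1% with the fold limit and 42.9% with the q limit. The difference of trunk and limb EGFP+ counts reversed for Pax9 to -1 and for Uncx to -1 with the q limit, for Uncx to -2 with the fold limit, for Nkx3-2 to -7 at 500 kb, and for Meox1 to 3 with the −log10 p limit, to 1 with other promoters counted and to 1 with the limit on reads. The EGFP+ minus EGFP- difference reversed for Meox1 to 1 in limb and 1 in trunk with the q limit and to 2 and 3 with the fold limit, for Meox2 in limb to 1 with the fold limit, and for Pax9 in limb to -2 at 500 kb and -1 by nearest start site. Of the recomputed totals and shares, 58 stayed within 1.5 times the reported count or within the binomial interval of the reported share, which is wide, and 46 did not. Apart from fewer intervals or larger windows, the cause of these changes was not tested. Distal summits around the genes had a median of 14 to 19 reads, beside 16 to 18 over all distal intervals of the lists. What depth contributed to these values was not tested.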

Other observations

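The neighbouring genes in the windows were marked as follows. Nkx2-2, Nkx2-1 and Nkx2-9, homeobox neighbours of Pax1 and Pax9, had no promoter interval in any population. Bod1l, the neighbour of Nkx3-2, was marked with 34 reads in limb EGFP+, 40 in trunk EGFP+ and 38 in trunk EGFP- cells. In limb EGFP- cells an interval with 25 reads overlapped these but ended outside the promoter window. Agmo, the neighbour of Meox2, was marked in limb EGFP- cells alone, with 16 reads. Sost, 72.6 kb upstream of Meox1 and known as a gene of osteocytes, had no promoter interval in any population. Among the neighbours of Uncx, C130050O18Rik was marked in both EGFP+ populations, with 58 reads in limb and 63 in trunk, and in no EGFP- population, while Zfand2a was marked in all 4, with 62 to 104 reads.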
